A study of Mus musculus with 11 samples.

Results

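The genes described here are 9 regulators of neurogenesis with a basic helix-loop-helix (bHLH) or plain helix-loop-helix domain: the proneural factors Neurog1 and Neurog2, the differentiation factors Neurod1 and Neurod4, the Notch-effector repressors Hes1 and Hes5, and the inhibitors Id1, Id2 and Id3. They were measured by every probe set that the platform annotation assigns to 1 of these symbols alone. These are 9 of 13675 named genes and 12 of 24899 probe sets, 11 of 12488 on the Affymetrix U74Av2 array and 1 of 12411 on the U74Bv2 array, and each of the 9 genes had at least 1. The question was whether the neurogenesis program persists in knockout ganglia at embryonic day 13.5.

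RNA came from mouse trigeminal ganglia, which hold the sensory neurons of the face, at embryonic day 13.5. The genotypes were knockout, heterozygote and wild-type for Brn3a, a homeodomain transcription factor of sensory neurons encoded by Pou4f1. U74Av2 was run on 2 arrays of each genotype, and U74Bv2 on 2 knockout arrays, 2 heterozygote arrays and 1 wild-type array. Per the labels each array held RNA of about 10 to 12 ganglia pooled by genotype, so neither single embryos nor litters can be followed. The labels name neither the strain nor the structure of the knockout allele. No label says that pools came from separate litters, so p-values measure only how these arrays vary, and the precision of every value is limited by the few arrays.

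In developing ganglia, proneural bHLH factors bind DNA as dimers with E proteins and start neuronal differentiation, and Neurod factors act after them as cells leave the cell cycle. Hes proteins, induced by Notch signalling, repress proneural genes and hold cells as progenitors. Id proteins lack a DNA-binding basic region, sequester E proteins and are typical targets of BMP signalling. In the mouse, Neurog1 is needed to form trigeminal sensory neurons, and Neurog2 is better known from the epibranchial ganglia.

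Neurod1 and Neurod4, the pair of factors that act late in the cascade, were higher in knockout ganglia than in ganglia with a working allele, and Id1 was lower. Against all arrays that were not knockout, Neurod4 was 5.16-fold and Neurod1 2.56-fold higher on U74Av2, and Id1 was 2.51-fold lower, all past the test. None of these genes passed there against wild-type or heterozygote alone (limma adjusted p = 0.0877 to 0.186). Each of these calls was lost when certain single arrays were left out. The Neurod4 probe set was near the dim end in the other genotypes and passed the filter on dim probe sets only through its knockout signals (limma adjusted p = 0.0219, and 0.0406 with no filter). Neurod1 was also 3.1-fold higher on U74Bv2, from a different probe set. The labels do not say whether the U74Av2 and U74Bv2 arrays held separate RNA, so this may not be an independent measurement. Neurog1, Id2 and Id3 did not pass. Their knockout arrays lay above all others on 1 Neurog1 probe set, as for 8.53% of all tested U74Av2 probe sets. On those of Id2 and Id3 they lay below all others, as for 7.66%. Hes1 signal in knockout arrays overlapped that in heterozygote arrays and lay slightly above that in wild-type arrays, without a call, and Hes5, Neurog2 and a further Neurog1 probe set were too dim to be tested with the rest.

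The labels were checked on the targeted gene and on markers of the tissue. The Pou4f1 probe set on U74Bv2 had signals of 549.8 and 904.3 in knockout arrays, 2196.0 and 3570.1 in heterozygote arrays and 3313.1 in the wild-type array. Both knockout arrays lay below all others, with a log2 difference from them of -1.99 ± 0.25 (SE, limma adjusted p = 0.00292). Its position relative to the deleted sequence is not known here, so it checks only that the signal follows the labels. Isl1, a LIM-homeodomain factor of sensory neurons, had signals from 2295.7 to 2852.4 in knockout, 2649.8 to 3503.9 in heterozygote and 2786.8 to 2999.6 in wild-type arrays on U74Av2. The 2% trimmed mean of the signals lay between 500.26 and 500.29 on U74Av2 and between 497.61 and 498.38 on U74Bv2. The array numbers 1 and 2 in the labels stood apart on U74Av2 in the 18S ribosomal RNA controls, whose geometric mean was 13.1-fold higher on number 1 than on number 2 in knockout, 13.0-fold in heterozygote and 10.1-fold in wild-type. The difference within number 1 and within number 2 is therefore given for the genes below. Within each number these controls were also highest in knockout. Their geometric mean was 12803 against 6745 in heterozygote and 5173 in wild-type on number 1. On number 2 it was 974 against 518 and 511. Differences within a number do not remove this, and its part in the results was not tested.

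Signals were tested as log2(signal + 50) on U74Av2 and log2(signal + 49.8) on U74Bv2 with limma, with p-values adjusted by the Benjamini-Hochberg method over all 7453 and 7446 probe sets kept. A probe set was called at an adjusted p under 0.05. Because of the added constant, folds and log2 differences are smaller than the true change where signals are low. In bulk ganglia, a change in the number of cells of a type and a change in RNA per cell cannot be told apart. Bright and dim describe the signal of a probe set on its array and not the amount of a transcript.

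Neurod4, a neuronal differentiation factor also known as Math3, had the largest difference of the tested member probe sets. Its U74Av2 probe set 94123_at had signals of 522.2 and 800.4 in knockout arrays, against 110.5 and 32.5 in heterozygote arrays and 98.2 and 119.8 in wild-type arrays. Both knockout arrays lay far above all others, and the heterozygote and wild-type ranges overlapped. The group means were 661 ± 197 in knockout, 71.5 ± 55.2 in heterozygote and 109 ± 15.3 in wild-type ganglia (SD, n = 2 each).

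Against all other arrays Neurod4 rose by a log2 difference of 2.37 ± 0.34 (SE, 95% interval 1.59 to 3.14, limma adjusted p = 0.0219). In this comparison 65 of 7453 probe sets were called, 0.872%, of which 22 were higher and 43 lower in knockout. Neurod4 ranked 8th from the highest of the 7453 differences. Within array number 1 the difference was 1.89 and within number 2 it was 2.84. The call was lost without knockout array 1 (adjusted p = 0.1), knockout array 2 (0.165) or wild-type array 1 (0.0681), while the difference stayed between 2.08 and 2.65 over all 6 ways of leaving out an array. It was 2.76 with a pseudocount of 0.03 of the trimmed mean and 1.75 with 0.3, called with both.

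Against each genotype alone the same difference was of like size and was not called. It was 4.4-fold higher in knockout than in wild-type (log2 2.14 ± 0.39 SE, limma adjusted p = 0.156) and 6.06-fold higher in knockout than in heterozygote (2.60 ± 0.39, adjusted p = 0.0877). With pseudocounts of 0.03 and 0.3 of the trimmed mean the difference from heterozygote was 3.1 and 1.87, so the fold itself rests on the constant added. Heterozygote minus wild-type was -0.46 ± 0.39. The probe set was bright only in knockout: without the knockout arrays 33.6% of probe sets on the array were dimmer, so it passed the filter at the 40th percentile through the knockout signals, and its level in the other genotypes is close to the dim end of the scale.

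Neurod1, a factor of neuronal differentiation that the mouse needs for sensory neurons of the inner ear, was measured on both array types. On U74Av2 (92717_at) its signals were 1005.3 and 1256.2 in knockout arrays, against 416.3 and 351.4 in heterozygote arrays and 500.1 and 377.5 in wild-type arrays. On U74Bv2 (163624_i_at, a probe set that its suffix marks as incomplete) they were 1419.9 and 1244.8 in knockout arrays, against 306.4 and 475.3 in heterozygote arrays and 422.5 in the wild-type array. On both array types every knockout signal exceeded every other signal, and the wild-type signals lay inside or overlapped the heterozygote range.

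Against all other arrays Neurod1 rose by 1.36 ± 0.19 on the log2 scale on U74Av2 (SE, 95% interval 0.91 to 1.80, limma adjusted p = 0.0219) and by 1.63 ± 0.20 on U74Bv2 (1.19 to 2.07, adjusted p = 0.00254). On U74Bv2, 2.93% of probe sets were called in this comparison, 72 higher and 146 lower. Neurod1 ranked 20th from the highest of 7453 differences on U74Av2 and 10th of 7446 on U74Bv2. Within numbers 1 and 2 the difference of knockout from the mean of the others was 1.06 and 1.66 on U74Av2, and 1.84 and 1.3 on U74Bv2.

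The U74Bv2 result also passed against each genotype. Neurod1 was 2.92-fold higher in knockout than in wild-type (log2 1.55 ± 0.28 SE, limma adjusted p = 0.0391) in a comparison that called 1.4% of probe sets, and this call rests on 1 wild-type array. It was 3.19-fold higher in knockout than in heterozygote (1.67 ± 0.23, adjusted p = 0.00822), where 1.71% were called. Both calls held when any array of either group that could be left out was left out, but knockout against wild-type was no longer called without the filter on dim probe sets (adjusted p = 0.135) and without the intensity trend (0.109).

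On U74Av2 neither pairwise difference of Neurod1 was called. Knockout exceeded wild-type by 1.28 ± 0.24 (2.42-fold, limma adjusted p = 0.186) and heterozygote by 1.44 ± 0.24 (2.71-fold, adjusted p = 0.124). In all, 19 of 7453 probe sets, 0.255%, were called between knockout and wild-type and 14, 0.188%, between knockout and heterozygote, and none of the members was among them. The call against all other arrays was lost without knockout array 1 (adjusted p = 0.1), knockout array 2 (0.152), heterozygote array 1 (0.0636), heterozygote array 2 (0.0688) or wild-type array 2 (0.0651), and held without wild-type array 1 (0.0364). The difference ranged from 1.2 to 1.51 over these.

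**Figure D1:**
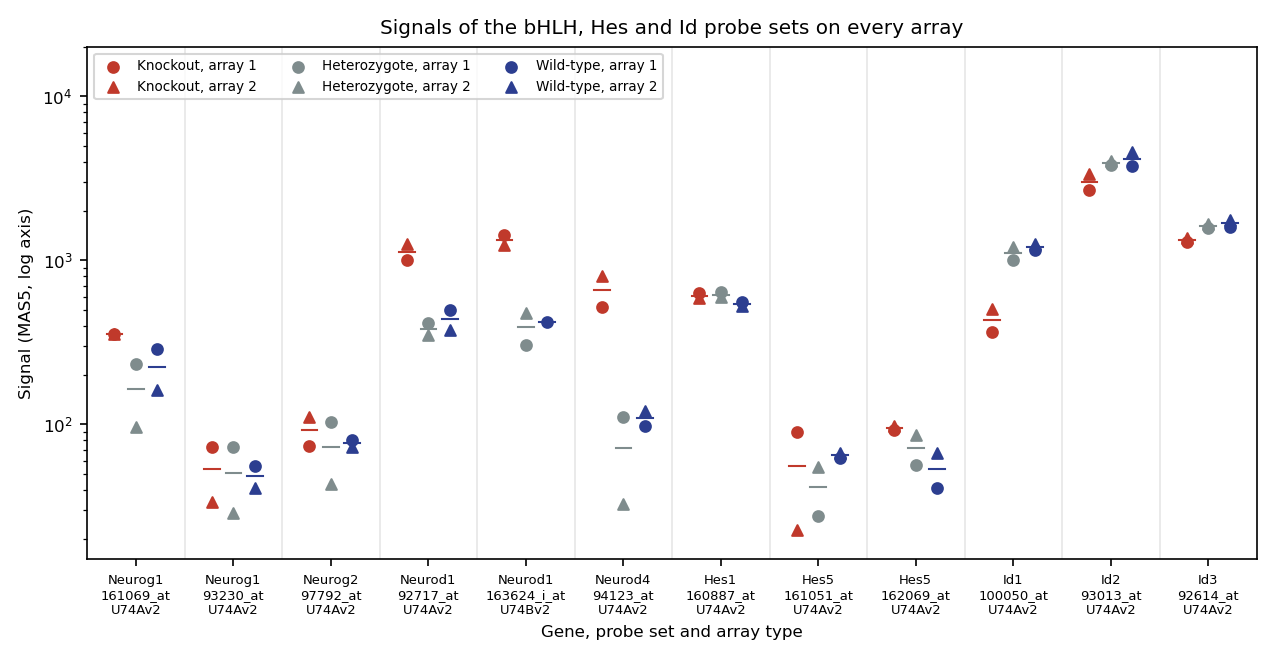
Signal of each member probe set on each array (vertical axis, MAS5 signal, log scale), with knockout, heterozygote and wild-type arrays from left to right within each probe set, circles for number 1, triangles for number 2 and a bar at the group mean. The knockout points of Neurod1 and Neurod4 lie above all others, those of Id1 below all others, and those of Hes1 among them.

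The promoters of the genes that rose are shown because proneural bHLH factors bind E-boxes and Hes factors bind N-boxes. The 250 bases before the RefSeq gene start (build GRCm38.p6) were searched on both strands for the E-box CANNTG and the N-box CACNAG, printed in capitals below, and for ATTAAT, the core of sites that Brn3 factors prefer. The windows are chr2:79456637-79456886 on the minus strand for Neurod1 and chr10:130280255-130280504 on the minus strand for Neurod4, each written 5′ to 3′ along the gene.
Neurod1: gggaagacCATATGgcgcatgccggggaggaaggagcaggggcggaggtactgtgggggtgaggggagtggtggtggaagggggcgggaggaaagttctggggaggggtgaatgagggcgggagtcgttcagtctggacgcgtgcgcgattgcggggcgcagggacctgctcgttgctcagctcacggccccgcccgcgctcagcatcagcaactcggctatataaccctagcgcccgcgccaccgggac
Neurod4: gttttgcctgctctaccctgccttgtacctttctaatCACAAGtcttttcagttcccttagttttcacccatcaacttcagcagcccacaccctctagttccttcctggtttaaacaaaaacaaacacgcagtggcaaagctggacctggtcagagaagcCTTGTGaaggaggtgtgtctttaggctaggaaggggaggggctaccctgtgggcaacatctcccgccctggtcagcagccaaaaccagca

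The Neurod1 window held 1 E-box and 0 N-boxes, and the Neurod4 window 0 E-boxes and 2 N-boxes. Of 32851 RefSeq windows of this length, 66.2% held an E-box, 36.7% an N-box and 4.4% ATTAAT. Among the other members with a window, Id2 and Hes5 held 1 E-box each and Id3, Neurog1 and Neurog2 held 0. For Hes5 and Neurog2 the window lies before a transcript start that is not the outer end of the gene. Neurod4 had a further window before such a start, chr10:130280139-130280388, with 0 E-boxes and 1 N-box. No window of the 7 members held ATTAAT. Hes1 and Id1 had no window in the table. A match is a description of letters and not a site.

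Neurog1, the proneural factor that starts trigeminal neurogenesis in the mouse, gave unequal results from its 2 probe sets. On 161069_at the signals were 356.3 and 355.5 in knockout arrays, against 234.8 and 95.8 in heterozygote arrays and 287.9 and 162.3 in wild-type arrays. On 93230_at they were 72.6 and 33.4 in knockout, 72.5 and 28.8 in heterozygote and 55.8 and 40.7 in wild-type arrays. The brighter probe set put both knockout arrays just above all others, and the dim one had fully overlapping genotypes.

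The difference of the brighter Neurog1 probe set from all other arrays was 0.80 ± 0.33 on the log2 scale (SE, 1.74-fold, 95% interval 0.04 to 1.56) and did not pass after adjustment (unadjusted p = 0.0417, limma adjusted p = 0.576). It was 0.39 within number 1 and 1.2 within number 2, and ranked 92nd of 7453. The dim probe set, tested only in the fit without the filter, differed by 0.04 ± 0.25. Its 95% interval, -0.53 to 0.62, overlaps that of the brighter probe set, and the difference between the 2 was not tested.

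Neurog2, a proneural factor related to Neurog1, was dim on all arrays. Its signals were 73.3 and 110.1 in knockout, 102.9 and 43.5 in heterozygote and 80.4 and 72.9 in wild-type arrays, with overlapping genotypes. In the fit without the filter knockout differed from the others by 0.19 ± 0.26 (SE, limma adjusted p = 0.993). On U74Av2, 31.9% of probe sets had a lower mean.

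Hes1, a repressor induced by Notch that holds cells as progenitors, was not called in any comparison. It had 632.9 and 587.4 in knockout arrays, against 642.0 and 593.4 in heterozygote arrays and 556.2 and 526.7 in wild-type arrays. The knockout and heterozygote ranges overlapped, and both lay above wild-type. Knockout differed from all other arrays by 0.07 ± 0.16 on the log2 scale (SE, 95% interval -0.30 to 0.44, limma adjusted p = 1), from wild-type by 0.16 ± 0.20 and from heterozygote by -0.02 ± 0.20. The interval against all others runs from a decrease of 0.30 to an increase of 0.44, so changes within that range are not excluded. It is not a limit of detection.

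Hes5, a further Notch-effector repressor of neural progenitors, was dim on both of its probe sets. On 162069_at the signals were 91.8 and 97.7 in knockout, 56.5 and 86.5 in heterozygote and 40.9 and 66.5 in wild-type arrays. On 161051_at they were 89.4 and 22.7 in knockout, 27.7 and 54.8 in heterozygote and 62.6 and 66.9 in wild-type arrays. The knockout arrays were the highest on 162069_at and lay at both extremes on 161051_at. In the fit without the filter the differences from all other arrays were 0.38 ± 0.23 (SE, limma adjusted p = 0.876) and -0.02 ± 0.30.

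Id1, an inhibitor of bHLH dimers and a common readout of BMP signalling, fell in knockout. Its signals were 366.3 and 501.6 in knockout arrays, against 1003.3 and 1209.7 in heterozygote arrays and 1160.3 and 1259.3 in wild-type arrays. Every knockout signal was below every other signal, and the heterozygote and wild-type ranges overlapped. The means were 434 ± 95.7 in knockout, 1106 ± 146 in heterozygote and 1210 ± 70.0 in wild-type ganglia (SD, n = 2 each).

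Against all other arrays Id1 fell by 1.33 on the log2 scale (difference -1.33 ± 0.18 SE, 95% interval -1.75 to -0.91, limma adjusted p = 0.02). It ranked 36th from the lowest of 7453 differences, and was -1.44 within number 1 and -1.22 within number 2. The difference was -1.39 ± 0.24 from wild-type (2.63-fold lower, adjusted p = 0.134) and -1.27 ± 0.24 from heterozygote (2.4-fold lower, adjusted p = 0.15), neither called. The call against all others was lost without knockout array 1 (-1.13, adjusted p = 0.161), heterozygote array 2 (0.0688), wild-type array 1 (0.0681) or wild-type array 2 (0.0612), and held without knockout array 2 (0.0459) or heterozygote array 1 (0.041).

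Id2 and Id3, its relatives, stood lower in knockout by less. Id2 had 2699.8 and 3338.4 in knockout arrays, against 3804.8 and 4043.4 in heterozygote arrays and 3735.4 and 4598.5 in wild-type arrays. Id3 had 1291.6 and 1366.3 in knockout arrays, against 1581.7 and 1670.0 in heterozygote arrays and 1602.4 and 1757.9 in wild-type arrays. For both genes the knockout arrays lay below all others and the heterozygote and wild-type ranges overlapped.

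The differences from all other arrays were -0.42 ± 0.17 for Id2 (SE, 1.34-fold lower, limma adjusted p = 0.546) and -0.30 ± 0.14 for Id3 (1.23-fold lower, adjusted p = 0.716), so neither passed. They were -0.47 and -0.36 within numbers 1 and 2 for Id2, and -0.29 and -0.32 for Id3. Id2 ranked 532nd and Id3 870th from the lowest of 7453.

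**Figure D2:**
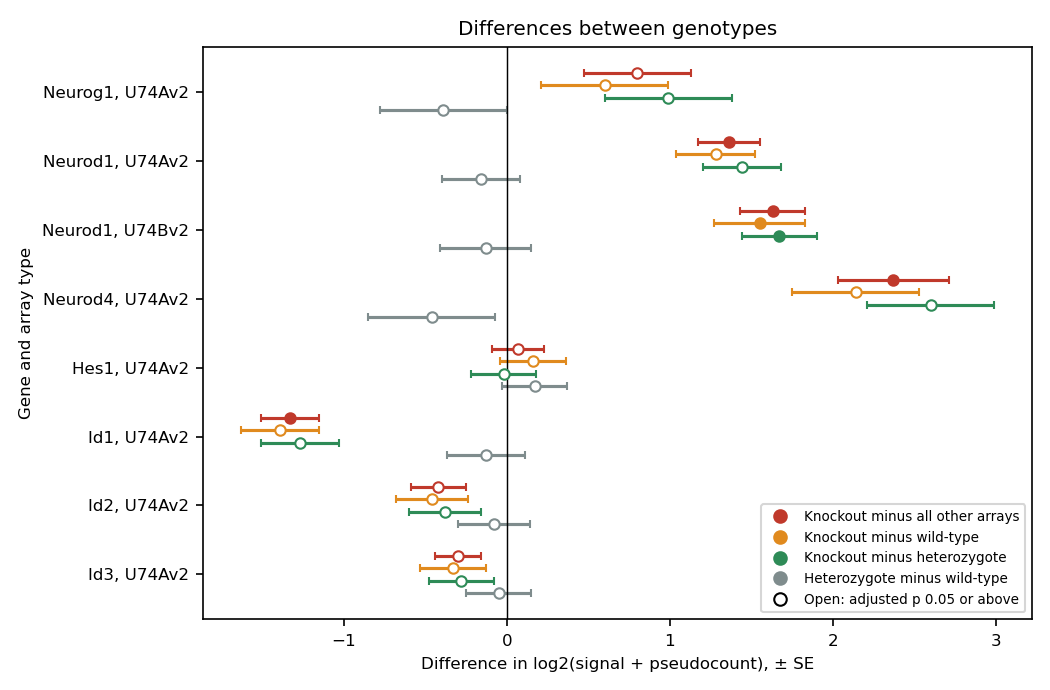
Differences in log2(signal + pseudocount) between genotypes for each tested member probe set (horizontal axis, points with SE bars from the limma fit), with a colour per comparison and filled points where the adjusted p is under 0.05. Against all other arrays the points of Neurod4, Neurod1 and Id1 are filled, while every heterozygote against wild-type point is open.

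Counted together, 7 of the 11 U74Av2 member probe sets entered the test, and 3 of the 7 were called against all other arrays, as were 0.872% of all tested probe sets. Of the 7, the knockout arrays of 3 (Neurod1, Neurod4 and Neurog1) were above all others, as were those of 8.53% of all tested probe sets, and those of 3 (Id1, Id2 and Id3) were below all others, as were 7.66%. On U74Bv2 the knockout arrays of 14.9% of tested probe sets lay above all others, Neurod1 among them. The median log2 difference of all tested probe sets was 0.02 on both array types. Neurod4 entered through its knockout signals, so these counts cover the probe sets that passed the filter and not all members.

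No tested member was called between heterozygote and wild-type ganglia. The log2 differences were -0.16 ± 0.24 for Neurod1 on U74Av2 and -0.13 ± 0.28 on U74Bv2, -0.46 ± 0.39 for Neurod4, -0.13 ± 0.24 for Id1 and -0.39 ± 0.39 for Neurog1 (SE). Over the whole array 0 of 7453 probe sets (0%) were called on U74Av2, with 52 at an unadjusted p under 0.05, and 0 of 7446 (0%) on U74Bv2, with 283 at an unadjusted p under 0.05, by limma. For Neurod1, Neurod4 and Id1 the order of levels separates knockout from the other genotypes, while heterozygote and wild-type were not told apart. With so few arrays this does not show that they are equal. The 95% interval for Neurod4 ran from -1.38 to 0.45.

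**Figure D3:**
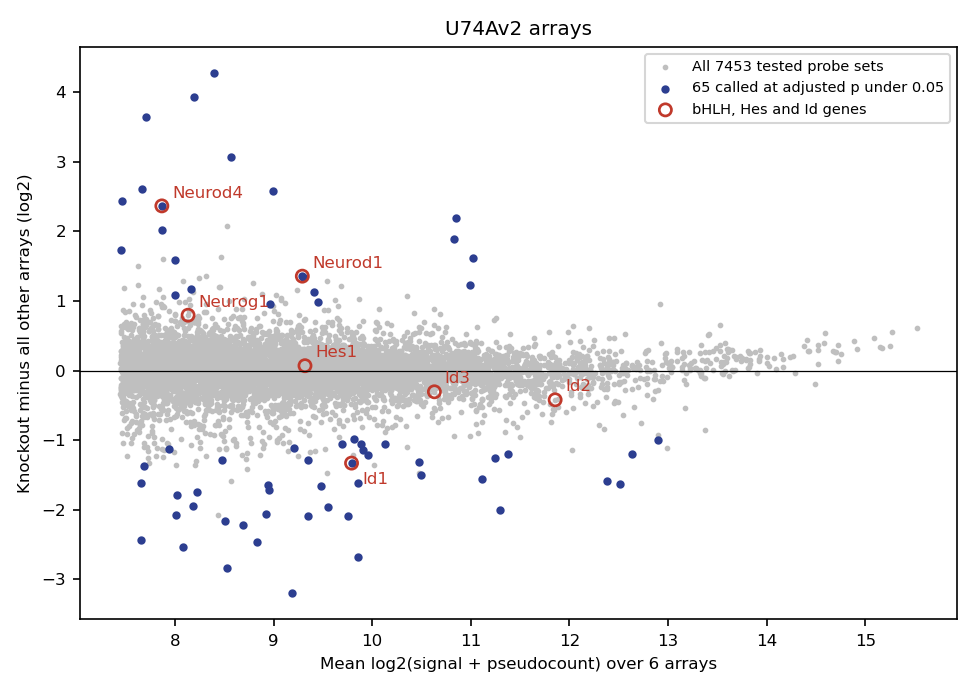
Log2 difference of knockout from all other U74Av2 arrays (vertical axis) against mean log2 signal (horizontal axis) for the 7453 tested probe sets, with the 65 called probe sets in blue and members circled. Neurod4 and Neurod1 lie near the upper edge of the cloud, Id1 near the lower edge, and Hes1 in its middle.

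Among other bHLH factors, their E-protein partners and related factors of neuronal differentiation, 13 of 22 listed genes were tested on U74Av2. Of these, 1 rose and 0 fell in knockout against all others, beside 0.872% of all tested probe sets called. At an unadjusted limma p under 0.05 there were 5 of the 13, beside 590 of all 7453 tested probe sets. The knockout arrays of 5 lay above all others and those of 2 below, beside 8.53% and 7.66% of all tested probe sets. The list median was 0.28 beside 0.02 for all probe sets. The gene that rose was Msc (musculin), a bHLH repressor known from muscle and lymphoid cells. Its signals were 1578.1 and 1685 in knockout arrays, against 276.7 and 274.3 in heterozygote arrays and 194.8 and 190.7 in wild-type arrays. Both knockout arrays lay above all others, as did those of 8.53% of all tested probe sets. Msc rose 6.92-fold over wild-type (log2 2.79 ± 0.21 SE, limma adjusted p = 0.00664) and 5.16-fold over heterozygote (2.37 ± 0.21, adjusted p = 0.015). The knockout against wild-type call did not survive leaving out any 1 array of knockout or wild-type (adjusted p = 0.0536 to 0.0842), and that against heterozygote on leaving out any 1 of knockout or heterozygote (0.118 to 0.162), while the difference changed by less than 0.1. Against all others it was called in each case.

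On U74Bv2, 5 genes of the same list were tested. Against all others 3 had an unadjusted limma p under 0.05, beside 915 of all 7446 tested probe sets, and the median was -0.09. After adjustment 1 rose and 0 fell, beside 2.93% of all tested probe sets called. The gene was Tcf4, an E protein that pairs with proneural factors, named here after its values were seen. It had 2524.8 and 2604.3 in knockout arrays, against 1607.4 and 1735.5 in heterozygote arrays and 1498.5 in the wild-type array. Both knockout arrays lay above all others, as did those of 14.9% of all tested probe sets. The Tcf4 difference was 0.65 ± 0.13 (SE, 1.57-fold, limma adjusted p = 0.0316). The call was lost without the filter (0.0533), without the intensity trend (0.101) and without knockout array 1 (0.129), knockout array 2 (0.18), heterozygote array 1 (0.123) or the wild-type array (0.126). A Tcf4 probe set on U74Av2 differed by 0.70 ± 0.21 and was not called (adjusted p = 0.342). Sox11, a factor of immature neurons and the brightest gene of the list, differed by 0.28 ± 0.18 on U74Av2 and 0.62 ± 0.19 on U74Bv2, and the early B-cell factor Ebf1 by -0.53 ± 0.18 and -0.40 ± 0.17, none of them called.

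Of the Notch pathway, which drives Hes genes, 17 of 37 listed genes were tested on U74Av2 and 10 on U74Bv2, and limma called 0 in knockout against wild-type, heterozygote or all others on either. At an unadjusted p under 0.05 there were 0 against all others on U74Av2 and 1 on U74Bv2. The median difference from all others was -0.02 on U74Av2 and 0.14 on U74Bv2. The brightest were Adam10, a protease that cleaves Notch, at -0.60 ± 0.36 (SE), Rfng, a glycosyltransferase of Notch, at -0.02 ± 0.16, and the receptor Notch1 at 0.28 ± 0.19. On U74Bv2 Rbpj, the DNA-binding partner of activated Notch, stood at 0.12 ± 0.13, the ligand-trafficking ligase Mib1 at 0.21 ± 0.16 and the Notch antagonist Numbl at 0.10 ± 0.24.

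Of the BMP pathway, which drives Id genes, 12 of 24 listed genes were tested on U74Av2 and 7 on U74Bv2, and again limma called 0 in these 3 comparisons, with 2 at an unadjusted p under 0.05 against all others on each array type. On U74Av2, 3 of 12 differences from all others were positive, the median was -0.19, and the knockout arrays of 4 genes lay below all others, beside 7.66% of all tested probe sets. Id4, the remaining Id gene and the brightest of the list, had 2156.3 and 2376.6 in knockout arrays, against 3061.6 and 3364.8 in heterozygote arrays and 2736.1 and 2734 in wild-type arrays. Its difference was -0.38 ± 0.16 (SE, limma adjusted p = 0.587). The signal transducer Smad1 stood at -0.33 ± 0.15, from a probe set of group type, and the receptor Acvr2a at -0.36 ± 0.25. Smad7 and Smad6, named after their values were seen, were among the genes below all others. Smad7 had 307.4 and 394.6 in knockout, 556.2 and 581.7 in heterozygote and 540.8 and 631.5 in wild-type arrays. Smad6 had 381.3 and 360.4, 463.5 and 445.6, and 511.6 and 389.5 in the same order. On U74Bv2 the median was 0.05, with the receptors Bmpr2 at -0.24 ± 0.14 and Bmpr1a at 0.05 ± 0.14 and the transducer Smad5 at 0.07 ± 0.14. The 2 genes there at an unadjusted p under 0.05, named after their values were seen, went opposite ways. Bambi stood at -0.62 ± 0.22 and Bmp5 at 1.2 ± 0.35.

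Genes of the cell cycle stood higher in knockout as a list, with 0 called by limma against all others on U74Av2. At an unadjusted p under 0.05 there were 12 of the 25 tested, beside 590 of all 7453 tested probe sets. All 25 tested on U74Av2, of 32 listed, had a positive difference from all others. Their median was 0.50, beside 0.02 for all tested probe sets, whose upper quartile was 0.18. The knockout arrays of 17 lay above all others, beside 8.53% of all tested probe sets. Bub3, a mitotic checkpoint protein, differed by 0.27 ± 0.16 (SE), and the cyclins Ccnb2 and Ccna2 by 0.43 ± 0.24 and 0.24 ± 0.26. The summed signal of 29 measured genes was 18250 and 17343 in knockout arrays, against 13434 and 11340 in heterozygote arrays and 13557 and 11909 in wild-type arrays, so both knockout sums exceeded the rest. On U74Bv2 only Bub3 (0.19 ± 0.15) and Bub1b (0.90 ± 0.29) were tested.

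Markers of neural progenitors also had positive differences, with 0 called by limma and 1 at an unadjusted p under 0.05 against all others on U74Av2. All 9 tested there lay above 0, with a median of 0.29, and their sums over 12 measured genes were 23614 and 20137 in knockout arrays, against 19758 and 16995 in heterozygote arrays and 15881 and 17495 in wild-type arrays. The radial glial lipid-binding protein Fabp7 stood at 0.29 ± 0.21 (SE), the progenitor factor Sox2, from a probe set of relaxed design, at 0.09 ± 0.34, and the intermediate filament Nes at 0.42 ± 0.23. Fabp7 alone made up most of each sum. Its signals were 16258.1 and 12753.4 in knockout, 14450.2 and 11880.1 in heterozygote and 9735.9 and 11460.1 in wild-type arrays, so knockout and heterozygote overlapped. On U74Bv2 the RNA-binding protein Msi1 stood at 0.08 ± 0.14.

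Markers of postmitotic neurons, young ones included, went both ways on U74Av2. Of 19 tested, 8 differences from all others were positive, the median was -0.03 and limma called 0, with 6 at an unadjusted p under 0.05. The knockout arrays lay below all others for 4 (the intermediate filament Prph at -0.92 ± 0.24 SE, from a family probe set, Syt1 at -1.13 ± 0.36, the RNA-binding protein Elavl4 at -0.58 ± 0.18 and the neurofilament Nefl at -0.55 ± 0.23) and above all others for 2 (the microtubule-associated Map2 at 0.69 ± 0.22 and Dcx at 0.28 ± 0.16), named after their values were seen, beside 7.66% and 8.53% of all tested probe sets. The neuronal tubulin Tubb3, from a family probe set, stood at 0.10, the microtubule regulator Stmn2 at -0.08 and the ubiquitin hydrolase Uchl1 at 0 on the log2 scale. On U74Bv2, 1 of 9 fell against all others, beside 2.93% of all tested probe sets called. It was the synaptic vesicle calcium sensor Syt1 at -1.12 ± 0.19 (SE, limma adjusted p = 0.0151), named after its values were seen. Its signals were 1941.3 and 1336.3 in knockout arrays, against 3804.1 and 2999.7 in heterozygote arrays and 3980 in the wild-type array. The call was lost without knockout array 2 (0.112), heterozygote array 1 (0.0675) or the wild-type array (0.051). A dimmer Syt1 probe set there was lower in knockout than in wild-type by -1.03 (adjusted p = 0.0453) and than in heterozygote by -1.25 (adjusted p = 0.00665). The neurofilaments Nefm and Nefl stood at 0.10 and -0.29 and the RNA-binding protein Elavl2 at 0.60.

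Of the markers of other cells that a ganglion dissection can hold, those of Schwann and satellite glia and of connective tissue had summed signals that were higher on both knockout arrays than on any other U74Av2 array, as the Neurod genes did. No signal on either array type was at 0. Limma called 0 of them, with 1 glia and 2 connective tissue markers at an unadjusted p under 0.05 against all others. Of 9 tested glia markers 8 had a positive difference from all others and the median was 0.25, and summed signals of 10 measured genes were 24627 and 21671 in knockout arrays, against 20994 and 19426 in heterozygote arrays and 17271 and 18626 in wild-type arrays. The glia list shares Fabp7 and Foxd3 with the progenitor list, and Fabp7 made up most of each glia sum too. These lists are therefore not separate evidence. Sox10, the defining glial factor, stood at 0.25 ± 0.30 and the neuregulin receptor Erbb3 at 0.22 ± 0.21 (SE). Of 11 connective tissue markers 9 were positive with a median of 0.19, and sums of 13 were 16109 and 14606 in knockout arrays, against 13289 and 13002 in heterozygote arrays and 13174 and 11484 in wild-type arrays. Their part, and that of the cell cycle and progenitor lists, in the results of the members was not tested.

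On U74Bv2 the neurotrophin receptor Ngfr, which neurons and glia both express, fell in knockout. It had 1106.8 and 1054.6 in knockout arrays, against 3654.5 and 2780.8 in heterozygote arrays and 2744.5 in the wild-type array, a difference of -1.31 ± 0.22 (SE) from wild-type (limma adjusted p = 0.0319) and -1.52 ± 0.18 from heterozygote (adjusted p = 0.00521). Against wild-type it was not called without the filter (0.109) or without the intensity trend (0.114). The other glia genes tested there were not called.

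The remaining lists had 0 genes called by limma in the 3 knockout comparisons on U74Av2, with 2 endothelial genes and 0 of the others at an unadjusted p under 0.05 against all others. Medians of the difference from all others were -0.05 over 8 endothelial, 0.20 over 2 central nervous system, 0.00 over 8 skeletal muscle, 0.16 over 8 red blood cell and 0.09 over 4 macrophage genes. Summed signals of the central nervous system markers were 566 and 636 in knockout arrays, against 474 and 509 in heterozygote arrays and 760 and 648 in wild-type arrays. The brightest were Eng (-0.01), Emcn (-0.13) and Ramp2 (0.34) of endothelium, Col1a2 (0), Postn (0.52) and Col1a1 (0.28) of connective tissue, and Pax5 (0.69) and En2 (-0.30) of the central nervous system. Those of muscle were Actc1 (0.47), Myod1 (-0.11) and Tnni1 (-0.16), those of red blood cells Hbb-y (0.28), Hba-a1 (0.21) and Hba-x (-0.27), and those of macrophages Cd14 (0.17), Cd68 (0) and Csf1r (0.31). On U74Bv2 Esam (-0.24) and Robo4 (0.16) of endothelium were tested and not called.

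**Figure D4:**
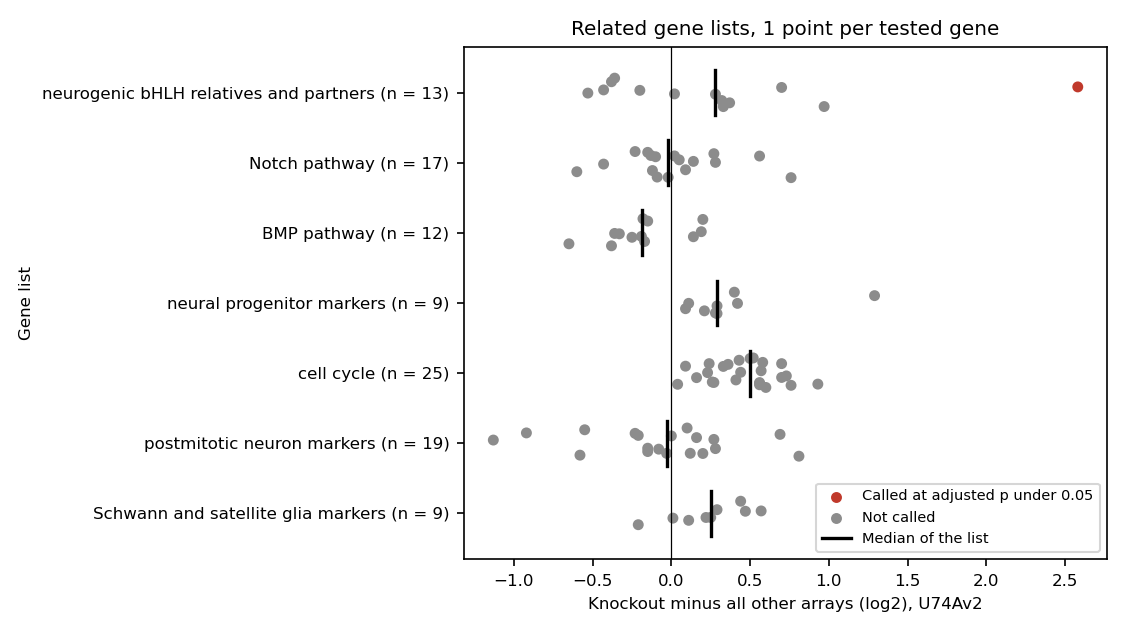
Log2 difference of knockout from all other U74Av2 arrays (horizontal axis) for the tested genes of the neurogenesis, cell cycle, neuron and glia lists (1 point per gene, red where called), with a bar at each list's median. All 25 cell cycle points and all 9 progenitor points lie right of 0, while the Notch list has a median of -0.02.

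The probe sets with the profile most like each called member were found by the root mean square difference of log2 values, centred on their mean, over all arrays of the type. Nearest to Id1 over 6 arrays were Hivep2 (0.06), Syt2 (0.08), Kcnn1 (0.14), Wipf1 (0.15) and Tspan4 (0.15), each lower in knockout than in wild-type by a log2 difference between -1.11 and -1.38. Nearest to Neurod1 on U74Av2 were Cdh6 (0.18), Nppb (0.18), Lgals7 (0.19), Sfrp1 (0.21) and Shox2 (0.25, from a probe set shared between transcripts). On U74Bv2, over 5 arrays, they were Nell2 (0.13), Fstl5 (0.18), Foxf1 (0.20), Fam210b (0.21) and Slc1a3 (0.22). Nearest to Neurod4 were Rab3b (0.37), Msc (0.49), Htr3a (0.52), Zbtb16 (0.52) and Gja1 (0.55). Each of those nearest to Neurod1 and Neurod4 was higher in knockout than in wild-type. The directions of all these neighbours follow from how they were chosen and are not a separate result.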

How the data were processed

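The deposited values are linear microarray intensities made with MAS5, according to the submitters' processing notes. Neither its version nor its scaling target is stated there, and no further scaling was applied. Gene symbols came from the platform annotation, updated through Entrez identifiers with the RefSeq table of GRCm38.p6. Of the U74Av2 probe sets 10855 had 1 symbol, 396 several and 1237 none, and of the U74Bv2 probe sets 10581, 178 and 1652. Those with several were left unnamed.

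Tests were run with limma 3.58.1 in R 4.3.3, and plots with matplotlib 3.10.9 in Python 3.11.15. The pseudocount was 0.1 of the mean 2% trimmed mean. Controls (66 on U74Av2, 0 on U74Bv2) and probe sets at or below the 40th percentile of mean log2 signal were left out. One limma model per array type, with eBayes and an intensity trend, had genotype as its factor, and a further model set knockout against all other arrays. All tests are two-sided. The code of the fit was tried on simulated data with independent noise on each array. Same-numbered U74Av2 arrays deviated together, so this does not show how the calls behave on these data. The lone wild-type U74Bv2 array was assumed to vary like the others. Array numbers 1 and 2 are shared between genotypes without a label that pairs them, so blocking on the number is an alternative only.

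Every member probe set is described. Of each gene list, genes called in knockout against wild-type or heterozygote are named, otherwise the 3 brightest tested, with the brightest probe set standing for a gene, and for each called member the 5 nearest profiles. The members and lists were chosen with earlier results of these data known. Promoter sequences are from RefSeq, for 7 of 9 members.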

Additional observations from a re-analysis of the deposited data

How the results depend on the processing

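Alternatives were pseudocounts of 0.03 and 0.3 of the trimmed mean, no filter, no intensity trend, quantile normalization, the replicate number as a block and leaving out each array in turn. Neurod1, Neurod4 and Id1 kept their direction in knockout against all other arrays under each of these. With the replicate block, 130 probe sets and 3 members (Id1, Neurod1 and Neurod4) were called on U74Av2 against wild-type, 129 and 3 against heterozygote, and 266 against all others. Their adjusted p with the block was 0.00514, 0.0283 and 0.04 against wild-type and 0.00856, 0.0163 and 0.0194 against heterozygote, in that order, so these pairwise calls turn on the block. On U74Bv2 the block gave 216 against wild-type, 317 against heterozygote and 7 for heterozygote against wild-type. Same-numbered U74Av2 arrays deviated together (correlations 0.53, 0.62 and 0.57, and 0.10 for the U74Bv2 pair), but with 2 numbers and no label this does not establish a pairing.

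On U74Bv2, no filter gave 21 calls and 0 members against wild-type and 54 against heterozygote, and no trend gave 40, 0 and 81. Calls on leaving out 1 array ranged on U74Av2 from 0 to 15 against wild-type, 0 to 11 against heterozygote and 17 to 42 (members 0 to 2) against all others. On U74Bv2 they ranged from 115 to 178, 130 to 188 and 112 to 202, and from 0 to 10 for heterozygote against wild-type. Without the wild-type U74Bv2 array its comparisons could not be computed.

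Differences near 0 changed sign. Without 1 array, Hes1 against heterozygote ranged from -0.07 to 0.04, and heterozygote against wild-type from -0.26 to 0 for Id1, -0.35 to 0.02 (U74Av2) and -0.41 to 0.15 (U74Bv2) for Neurod1 and -0.94 to 0.02 for Neurod4. Among list genes against all others, quantile normalization gave -0.02 for Cd68, -0.11 for Tubb3 and 0.02 for Col1a2, and the larger pseudocount 0 for Cd68. Without 1 array the ranges were -0.12 to 0.1 for Cd68, -0.04 to 0.3 for Tubb3, -0.57 to 0.56 for Col1a2, -0.3 to 0.48 for Sox2, -0.18 to 0.17 for Eng, -0.08 to 0.02 for Rfng, -0.14 to 0.65 for Sox10, -0.62 to 0.4 for Myod1, -0.28 to 0.02 for Emcn, -0.07 to 0.08 for Uchl1, -0.05 to 0.48 for Erbb3, -0.22 to 0.55 for Cd14 and -0.56 to 0.25 for Tnni1. On U74Bv2 they were -0.13 to 0.45 for Robo4, -0.02 to 0.18 for Msi1, -0.06 to 0.17 for Bmpr1a, -0.16 to 0.35 for Nefm, -0.22 to 0.03 for Sox4 and -0.14 to 0.33 for Numbl. The cause was not tested. Detection calls were not used here, so the dim signals of Hes5, Neurog2 and Neurog1 93230_at cannot be called absent.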
